A study of Homo sapiens with 16 samples.

Results

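Where the transcription factor SMAD3 sits on chromatin without added TGF-beta, and which acetylated genes lack it, was examined in 4 of the 16 samples of the series: 2 SMAD3 libraries (replicates 4 and 5) and 2 libraries of histone H3 acetylated at lysine 27 (H3K27ac, replicates 1 and 2). They were taken by the target and treatment that their labels give. All 4 came from H69, an immortalised human cholangiocyte line (cholangiocytes form the epithelium of the bile ducts), and were labelled as vehicle. The rest of the series holds vehicle libraries of H3K9ac, another acetylation mark, libraries of all 3 targets from H69 cells given recombinant human TGF-beta at 10 ng/ml for 16 h, and inputs, which were not analysed here. H69 is a single line, and its replicates may or may not be separate cultures, which the labels leave unstated, so each p-value below measures only how far these libraries spread. SMAD3 libraries were sequenced on lane 8 and vehicle H3K27ac libraries on lane 7, so lane and target cannot be told apart.

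TGF-beta signals through a receptor kinase that phosphorylates SMAD2 and SMAD3 in the cytoplasm. The phosphorylated proteins join SMAD4, enter the nucleus and bind DNA together with other transcription factors, commonly at the motif CAGAC or at GC-rich variants such as GGCGCC. Some SMAD3 is in the nucleus without added ligand, since SMADs shuttle and cells make TGF-beta themselves. H3K27ac is written by the acetyltransferases EP300 and CREBBP, with which SMAD3 interacts, and marks active promoters and enhancers. In bile duct cells the pathway is known for its part in fibrosis.

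The data are peak lists, that is, stretches of the genome where a library had more reads than its background, as the authors' peak caller scored them. SMAD3 had 22451 peaks in replicate 4 and 25268 in replicate 5, covering 11.2 and 14.5 Mb. H3K27ac had 82259 and 83429 peaks covering 54.7 and 59.1 Mb, so the acetylation lists were several times longer in both number and length. Read counts are not part of these lists, and the depth behind each value is therefore unknown. A region below is a set of overlapping peaks of one target called in both of its libraries, which left 18615 SMAD3 and 58594 H3K27ac regions, or 72.8% and 66.8% of all merged regions. Of the other SMAD3 regions, 889 were called in replicate 4 only and 6075 in replicate 5 only. A gene is called acetylated where an H3K27ac region lies within 1 kb of its start, and is said to lack SMAD3 where no peak of either SMAD3 library lies in the gene or within 10 kb of it. Start here means the known start, or either end of the gene for the 4162 genes whose start was not known. In those genes a peak at the far end also counts as one at the start.

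The labelled cell type was compared with H3K27ac at marker genes, and acetylated below means that an H3K27ac region lay at the gene's start. Of 23 cholangiocyte markers, 13 (56.5%) were acetylated, close to the 59.1% of all genes, among them the duct keratins KRT7 and KRT19, while CFTR, AQP1, SPP1 and SLC5A1 were listed at 0 in both H3K27ac libraries. Of 18 hepatocyte markers 6 were acetylated, and 5 were listed at 0, ALB and TTR among them. SERPINA1 had 6.602 and 7.466 kb of H3K27ac over the gene and its 10 kb flanks, and APOB 5.261 and 5.407 kb. Of 14 mesenchymal and endothelial markers 3 were acetylated, and of 14 leukocyte markers 4. PDGFRB, a mesenchymal marker, had 11.356 and 11.689 kb. Median H3K27ac length was 2.479 kb in cholangiocyte markers and 2.4995 kb in mesenchymal and endothelial ones. It was 0.8405 kb in hepatocyte markers, 1.3125 kb in leukocyte markers and 1.794 kb over all genes.

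The sequences below show starts at either end of the range described later. They are the 250 bases before the annotated start, from RefSeq (GRCh38.p14), 5′ to 3′ on the strand of the gene, with the SMAD motifs in capitals (CAGAC on either strand, as well as GGCGCC), along with the AP-1 motif, which is TGANTCA. The first 4 lay wholly or partly inside SMAD3 peaks of both libraries: the starts of SMAD3 itself (chr15:67065352-67065601), of the SMAD inhibitor SKIL (chr3:170357465-170357714), of the TGF-beta target TGFBI (chr5:136028738-136028987) and of the glycolytic gene GAPDH (chr12:6535014-6535263).
SMAD3: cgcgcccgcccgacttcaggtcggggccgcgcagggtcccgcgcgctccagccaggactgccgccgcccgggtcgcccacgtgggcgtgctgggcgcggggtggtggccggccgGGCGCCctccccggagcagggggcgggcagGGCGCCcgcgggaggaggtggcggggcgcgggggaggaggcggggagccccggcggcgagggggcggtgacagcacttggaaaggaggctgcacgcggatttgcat
SKIL: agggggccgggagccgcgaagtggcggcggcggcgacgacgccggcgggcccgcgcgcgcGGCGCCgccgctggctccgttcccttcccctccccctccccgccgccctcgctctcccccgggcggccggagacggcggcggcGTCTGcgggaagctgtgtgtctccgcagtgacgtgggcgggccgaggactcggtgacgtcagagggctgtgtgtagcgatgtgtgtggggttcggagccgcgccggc
TGFBI: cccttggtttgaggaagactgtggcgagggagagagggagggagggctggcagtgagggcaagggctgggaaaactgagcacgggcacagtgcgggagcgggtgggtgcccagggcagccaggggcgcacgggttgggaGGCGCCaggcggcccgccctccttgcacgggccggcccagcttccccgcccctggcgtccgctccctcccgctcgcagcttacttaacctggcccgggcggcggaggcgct
GAPDH: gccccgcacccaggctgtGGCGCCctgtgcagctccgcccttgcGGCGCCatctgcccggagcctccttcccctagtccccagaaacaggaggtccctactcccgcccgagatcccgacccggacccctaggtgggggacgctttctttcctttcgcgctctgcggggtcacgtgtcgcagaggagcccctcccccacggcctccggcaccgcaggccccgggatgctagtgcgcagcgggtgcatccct
The other 4 belong to acetylated genes that lacked SMAD3: NDST1, a heparan sulfate sulfotransferase (chr5:150497529-150497778), TMEM156, a membrane protein (chr4:39032410-39032659, minus strand), CDA, which is cytidine deaminase (chr1:20588847-20589096), and LAMB3, a laminin chain (chr1:209652426-209652675, minus strand).
NDST1: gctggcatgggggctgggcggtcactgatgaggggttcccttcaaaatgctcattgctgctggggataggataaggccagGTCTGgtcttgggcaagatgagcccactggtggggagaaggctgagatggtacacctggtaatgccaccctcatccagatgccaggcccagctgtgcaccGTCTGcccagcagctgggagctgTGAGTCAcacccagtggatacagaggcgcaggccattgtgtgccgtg
TMEM156: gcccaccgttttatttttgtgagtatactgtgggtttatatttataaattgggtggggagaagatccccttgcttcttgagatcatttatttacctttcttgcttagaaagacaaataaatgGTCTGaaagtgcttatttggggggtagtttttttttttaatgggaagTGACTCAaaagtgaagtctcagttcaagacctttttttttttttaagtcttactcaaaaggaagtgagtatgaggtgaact
CDA: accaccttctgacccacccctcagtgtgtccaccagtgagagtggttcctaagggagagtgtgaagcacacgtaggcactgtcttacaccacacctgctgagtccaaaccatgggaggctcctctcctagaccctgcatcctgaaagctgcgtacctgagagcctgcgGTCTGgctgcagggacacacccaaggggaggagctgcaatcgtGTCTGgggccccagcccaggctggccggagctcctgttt
LAMB3: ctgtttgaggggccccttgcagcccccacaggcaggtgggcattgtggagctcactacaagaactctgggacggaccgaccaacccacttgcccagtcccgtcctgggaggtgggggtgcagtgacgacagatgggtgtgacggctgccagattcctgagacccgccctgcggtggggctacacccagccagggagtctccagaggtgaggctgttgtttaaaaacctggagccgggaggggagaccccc
The 8 were picked with their motifs known, so their motif content is an illustration. GGCGCC occurs in the 4 with SMAD3 and in none of the other 4, while of all 17 acetylated starts with SMAD3 from which these were picked 8 hold it, and of the 6 without SMAD3 none. CAGAC occurs in SKIL, NDST1, TMEM156 and CDA. GC content was 80.8% in SMAD3, 78.4% in SKIL, 72.8% in TGFBI and 71.2% in GAPDH, against 60.4% in NDST1, 34.8% in TMEM156, 60.4% in CDA and 64.0% in LAMB3. In all 8 an H3K27ac peak reached into the window, from 54 bases in 1 library at CDA to all 250 bases.

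Without added ligand SMAD3 sat mainly at gene starts. Of the 18615 SMAD3 regions, 67.6% lay within 1 kb of the start of a protein-coding gene (either end where the start was not known). Another 17.6% lay elsewhere in a gene and 14.8% outside genes. The shares for H3K27ac were 29.8%, 39.3% and 30.9%. The windows around starts cover 45.0 Mb. The share of SMAD3 regions at starts was 65.3% with replicate 4 alone and 58.2% with replicate 5 alone. Regions called in 1 SMAD3 library only were seldom at starts, 29.9% of those of replicate 4 and 29.7% of those of replicate 5. SMAD3 regions at starts had a median length of 701 bp, and those away from starts 453 bp.

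At the starts themselves SMAD3 was narrower than H3K27ac and also covered bases just upstream where H3K27ac dropped. Around 9698 acetylated starts of known position, SMAD3 peaks covered most starts just downstream, with a maximum of 87.6% at 150 bp in replicate 4 and 90.4% at 100 bp in replicate 5. H3K27ac had its maximum at 150 bp too, 94.8% in replicate 1 and 95.2% in replicate 2. Just upstream H3K27ac dropped to 34.7% and 37.7% at 50 bp before the start, where SMAD3 still covered 66.6% and 77.2%. SMAD3 had a shallower dip further upstream, to 51.7% and 61.0% at 150 bp before the start, with 58.5% and 65.4% at 250 bp before it. At 1 kb downstream SMAD3 covered 7.54% and 10.5% of starts and H3K27ac 53.1% and 56.6%, so the acetylation reached further into the gene. A drop in H3K27ac just upstream of starts is the known mark of the nucleosome-free gap of active promoters. Of the SMAD3 regions, 54.5% (10153) had their centre within 1 kb of a known start. These centres lay at a median of 79 bp after the start, and 66.8% of them within 250 bp. For H3K27ac the share was 21.9% (12811), the median 244 bp after the start, and 17.9% lay within 250 bp. Of the 8325 starts whose first base lay in a SMAD3 region, 3003 (36.1%) did not lie in an H3K27ac region, and 2888 of these had one within 1 kb.

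**Figure D1:**
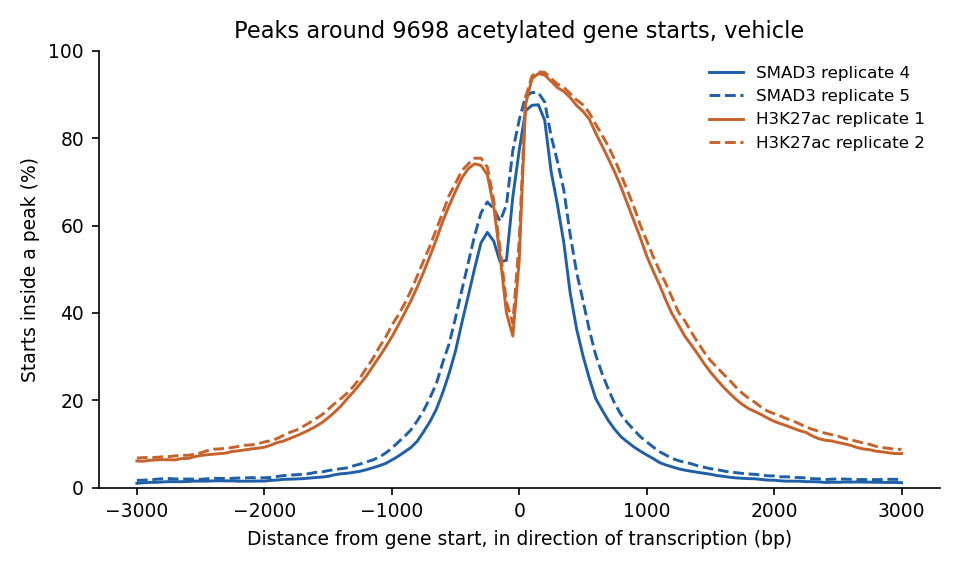
Share of acetylated gene starts of known position that lie inside a peak (vertical axis, percent), by distance from the start in the direction of transcription (horizontal axis, bp), for each of the 4 vehicle libraries. Both SMAD3 libraries form a narrow rise over the start and a lower one upstream, with a dip to 51.7% and 61.0% between them at 150 bp upstream, while both H3K27ac libraries form a wider band with a drop to 34.7% and 37.7% at 50 bp upstream.

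Most resting SMAD3 regions overlapped H3K27ac. Of the SMAD3 regions 92.7% (17248) overlapped an H3K27ac region by at least 1 bp. Over the single pairs of libraries the share was 91.5% and 91.9% for replicate 4 and 85.8% and 86.4% for replicate 5, so the SMAD3 libraries differed more than the H3K27ac libraries did. By position the share was 96.3% at starts, 84.8% in genes and 85.4% outside genes. By length, 85.6% of the bases in SMAD3 regions were in H3K27ac regions. One SMAD3 region often bridged neighbouring acetylated stretches: 4123 touched 2 or more H3K27ac regions, and 3504 of these were at starts. H3K9ac was present at 95.1% of SMAD3 regions.

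The overlap with acetylation followed the peak score. Ranked by the authors' score, and divided into 10 equal classes, the best class of SMAD3 regions overlapped H3K27ac in 99.9% of cases, and the lowest in 70.2%. The share at starts was 87.4% in the best class and 30.2% in the lowest. Median length was 1033 bp and 319 bp, so score, length and position move together. Among regions called in only 1 SMAD3 library, 68.95% of those of replicate 4 and 62.4% of those of replicate 5 overlapped H3K27ac.

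**Figure D2:**
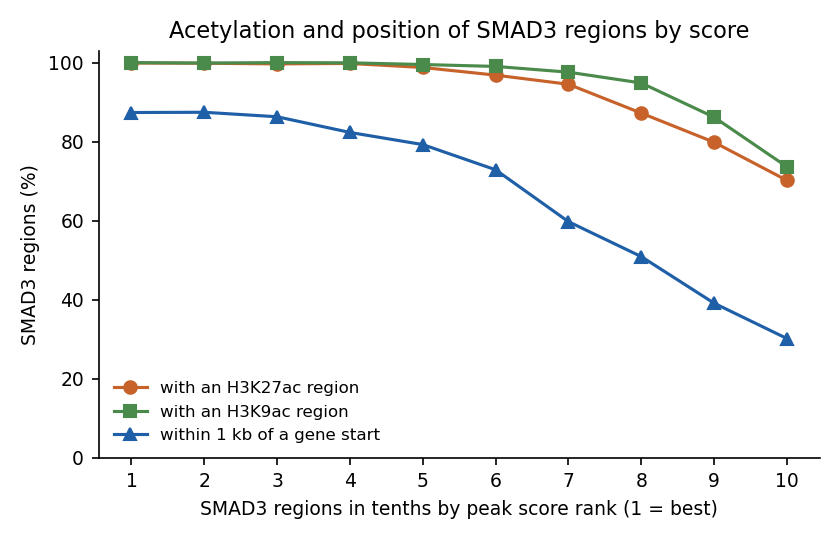
Share of SMAD3 regions (vertical axis, percent) that overlap an H3K27ac region, overlap an H3K9ac region, or lie within 1 kb of a gene start, in 10 equal classes by the mean score rank of the region's peaks in the 2 SMAD3 libraries (horizontal axis, 1 is the best). Acetylation stays near 100% over the first classes and reaches 70.2% for H3K27ac in the last, while the share at starts goes from 87.4% to 30.2%.

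In the other direction the 2 positions differed widely. Of all H3K27ac regions 33.2% (19471) overlapped a SMAD3 region. At starts it was 84.9% (14833 of 17464), in genes 10.4% (2403 of 23010) and outside genes 12.3% (2235 of 18120). With single library pairs the share at starts was 77.0% to 80.9%, and away from starts 7.95% to 10.4%, so the gap between positions was far larger than the spread between libraries. No peak of either SMAD3 library touched 37264 H3K27ac regions (63.6%), namely 2075 at starts, 19986 in genes and 15203 outside genes. By length, 19.5% of the bases in H3K27ac regions were in SMAD3 regions. These shares depend on how many peaks are taken: with the 22451 best scored peaks of each of the 4 libraries, 97.3% of H3K27ac regions at starts and 36.8% of those away from starts overlapped SMAD3, and 75.8% of SMAD3 regions overlapped H3K27ac.

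Longer acetylated regions carried SMAD3 more often at both positions. Overlap was counted from 1 bp, so a longer region has more room to touch a peak, and the part of this in the rise was not tested. At starts the share with SMAD3 was 48.0% in the shortest of 5 equal length classes of H3K27ac regions and 96.3% in the longest. Away from starts it was 4.60% in the shortest class and 25.4% in the longest. In the longest class away from starts, 26.8% touched a peak of SMAD3 replicate 4 and 32.5% one of replicate 5. At every length the share at starts was above that away from starts, in both SMAD3 libraries. At starts the regions with SMAD3 had a median of 1039 bp, and those with no SMAD3 peak 401 bp. Away from starts the medians were 1020 bp and 530 bp.

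**Figure D3:**
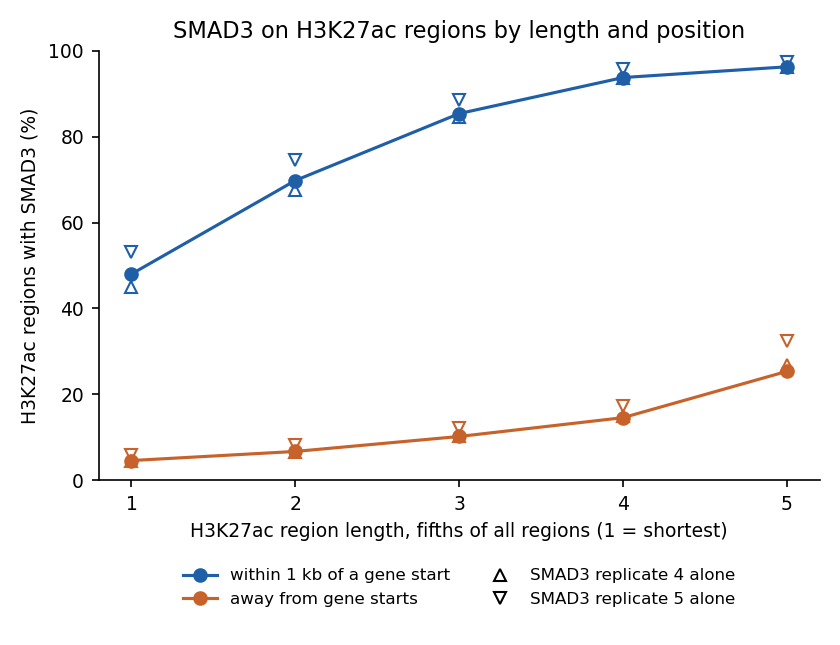
Share of H3K27ac regions that overlap SMAD3 (vertical axis, percent), in 5 equal length classes of all H3K27ac regions (horizontal axis, 1 is the shortest), within 1 kb of gene starts and away from them. Filled points use SMAD3 regions called in both libraries and open triangles the peaks of 1 SMAD3 library. Shares at starts run from 48.0% to 96.3% and those away from starts from 4.60% to 25.4%.

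H3K9ac moved with SMAD3 at H3K27ac regions. At starts it was present at 99.4% of H3K27ac regions with SMAD3 and at 73.5% of those with no SMAD3 peak. Away from starts it was present at 97.7% and 31.3%. In the shortest class away from starts the shares were 90.6% and 16.1%, and in the longest 99.8% and 78.9%, so the gap held within each length class. Of the H3K27ac regions away from starts with no resting SMAD3 peak, 5.27% overlapped SMAD3 peaks of both TGF-beta libraries, against 94.0% of those with SMAD3.

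Counted by gene, 11801 of 19974 protein-coding genes (59.1%) were acetylated at their start. SMAD3 was at the start of 11110 of them (94.1%). Another 468 (3.97%) had no SMAD3 region at the start but a SMAD3 peak in the gene or within 10 kb. The remaining 223 (1.89%), in 216 separate windows, lacked SMAD3. The start was known for 144 of these 223. Their median H3K27ac length was 1.25 kb, against 3.04 kb in acetylated genes with SMAD3 at the start. H3K9ac was at the start of 73.1% of them and of 99.9% of the latter. SMAD3 peaks of both TGF-beta libraries were found in the windows of 72 of the 223, and of neither in those of 110. Over all 11801 acetylated genes these numbers were 11583 and 133. With the 22451 best peaks of each library 29 genes were left, and 104 genes lacked a SMAD3 peak within 50 kb.

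The acetylated genes without SMAD3 included genes with more acetylation than most genes that had it. All values are lengths inside peaks over the gene and 10 kb to either side of it, and SMAD3 is listed at 0 in both libraries. CSGALNACT1, which starts chondroitin sulfate chains, had 17.7 and 19.2 kb of H3K27ac in replicates 1 and 2. NDST1, which sulfates heparan sulfate chains (chr5:150497779-150558211), had 15.7 and 17.7 kb. CSF3, the granulocyte colony-stimulating factor (chr17:40015440-40017813), had 12.9 and 12.7 kb, all in 1 H3K27ac region. Both sulfated chain enzymes act in the Golgi on proteoglycans. C11orf86 had 11.7 and 12.6 kb. BATF, an AP-1 family factor, had 10.6 and 11.8 kb. DPF3, a subunit of the BAF chromatin remodelling complex, had 10.2 and 11.8 kb. In each of these genes the 2 H3K27ac libraries were close to each other. CSGALNACT1 and CSF3 had no known start, so acetylation at either end counted for them. TMEM156 had 10.8 and 10.99 kb, and CDA had 9.96 and 11.3 kb. PSG1, a placental glycoprotein of a family of near-identical genes where reads may be split, had 8.83 and 10.6 kb. LAMB3, a chain of the basement membrane laminin of epithelia, had 9.23 and 10.0 kb. Further members named by the list rule were the fibrinogen chain FGB (5.45 and 5.80 kb), the cytokine CSF2 (2.51 and 2.95 kb), the crosslinking enzyme LOX (1.93 and 1.95 kb), the matrix protein TNC (1.06 and 1.43 kb) and HOXB2 (1.04 and 1.76 kb). The BMP antagonist NOG, the ligand WNT5A and the trefoil peptide TFF3 were acetylated over less than 1 kb in each library and also had no SMAD3 peak.

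Some of the longest H3K27ac regions touched no SMAD3 peak. Of the 100 H3K27ac regions of 10 kb or more, 7 (7%) touched no SMAD3 peak, and of the 740 of 5 kb or more 160 (21.6%). The longest lay in RXRA, a nuclear receptor (chr9:134369308-134382931, 13624 bp), followed by the one at CSF3 (13104 bp), a gene that lacked SMAD3 altogether, and one in MYH9, non-muscle myosin (chr22:36356693-36368769, 12077 bp). One of 10441 bp lay inside the SMAD3 gene itself, 75675 bp from the nearest known start (chr15:67141278-67151718). One of 11683 bp lay in the gene of the zinc finger factor ZBTB16. TGF-beta libraries had SMAD3 peaks of 1.33 and 0.908 kb in the region inside SMAD3 and none in that of MYH9.

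SMAD3 regions away from any H3K27ac peak were few in these lists. Of the 18615 SMAD3 regions, 1069 (5.74%) touched no peak of either H3K27ac library. Of these 29.7% were at starts, 39.1% in genes and 31.2% outside genes. They were short (median 381 bp) and low in score, with a median rank percentile of 76.2, where 0 is the best, against 37.2 for SMAD3 regions with H3K27ac. Their nearest H3K27ac peak was a median of 3885 bp away, and 265 had one within 1 kb. H3K9ac was present at 34.1% of them, against 95.1% of all SMAD3 regions. SMAD3 peaks of both TGF-beta libraries overlapped 88.6% of them, against 96.3% of all SMAD3 regions. The number rests on the SMAD3 libraries: peaks of replicate 5 alone gave 3187 and those of replicate 4 alone 1626. It rests on the number of peaks as well, and was 3571 with equal peak numbers in all 4 libraries.

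The best scored of these regions were mostly at gene starts with H3K9ac. The first was at HAP1, which encodes a huntingtin-associated protein (chr17:41734248-41734841, 594 bp, rank percentile 3.61), 37597 bp from the nearest H3K27ac peak. One at TENT5C, a poly(A) polymerase (chr1:117605941-117606370), was 128914 bp from the nearest. Others of the first 10 were at the Notch ligand DLL4 (chr15:40929249-40929681, 11101 bp from the nearest), the oxygen sensor EGLN3 (11893 bp), the BAF subunit SMARCD3 (24196 bp), the small GTPase RASD1 (17986 bp), C1QL1 (102 bp) and TNRC6C (170 bp), with 2 outside genes nearest to GRAPL and to the amino acid transporter chain SLC3A2. All 10 overlapped SMAD3 peaks of both TGF-beta libraries, as did 96.3% of all SMAD3 regions, and 7 had H3K9ac. By gene, 265 of the 8173 genes not acetylated at their start had SMAD3 there (3.24%), and 87.2% of these 265 had H3K9ac at the start. They include 4 factors of the biliary list. FOXA3 had 2.02 and 2.13 kb of SMAD3 in its window with 1.17 and 0.919 kb of H3K27ac. CEBPA had 0.354 and 0.358 kb with H3K27ac listed at 0. ONECUT1 (0.157 and 0.229 kb) and ONECUT2 (0.196 and 0.173 kb) also had H3K27ac listed at 0.

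To place each gene against the others, SMAD3 length and H3K27ac length over the gene and its 10 kb flanks were compared with limma as log2(length + 500 bp). Each library was first centred on its median, since SMAD3 length was 1.10 lower (log2) than H3K27ac length at the median gene. A difference above 0 therefore means more SMAD3 for its H3K27ac than the median gene. Of 13461 genes tested, 5229 had more (38.8%) and 4149 less (30.8%) at an adjusted p under 0.05. Without centring the split was 89 more and 11679 less, and with lengths scaled to a common median before the 500 bp were added 4722 more and 4010 less. The difference followed the amount of acetylation: over 5 equal classes of genes by H3K27ac length its median was 0.62 in the class with the least and −1.01 in the class with the most, where SMAD3 length was 59.2% and 19.3% of H3K27ac length. In the class with the least, 2142 of 2692 genes had more SMAD3, and in the class with the most 200 of 2693 did. H3K27ac length both defines the classes and enters the difference, so part of this slope is set by construction. Genes with little H3K27ac could also pass the filter on mean length through their SMAD3, and genes with little or no SMAD3 through their H3K27ac. The scale gap adds to this slope through the added 500 bp: with the scaled lengths the medians were 0.32 and −0.81.

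The 10 genes with the most SMAD3 length had 7.64 to 28.4 kb of it. LOC124905135 (chr22:46044644-46113928) came first with 19.8 and 28.4 kb of SMAD3 in replicates 4 and 5, and 71.7 and 74.3 kb of H3K27ac in replicates 1 and 2. KRT7, the keratin that marks duct epithelium (chr12:52233243-52255853), had 18.6 and 22.3 kb of SMAD3 against 22.03 and 23.3 kb of H3K27ac, so the 2 targets overlapped in range. Its difference was 0.95 ± 0.10 (SE, adjusted p = 1.35e-04), and −0.044 with a window of 50 kb. TNS4, of the tensin family, had 12.0 and 17.7 kb against 26.8 and 30.8 kb, a difference of 0.15 (adjusted p = 0.363). PPP1R10, a phosphatase subunit of the nucleus (chr6:30600413-30617243), had 10.6 and 13.0 kb of SMAD3 against 5.55 and 5.10 kb of H3K27ac. This was the reverse order of the targets, with a difference of 2.17 ± 0.11 (SE, adjusted p = 3.64e-06). AJUBA, a LIM protein of cell junctions, had 9.45 and 11.1 kb against 10.99 and 11.3 kb, a difference of 0.98 (adjusted p = 1.09e-04). The other 5 were REPS1, VMP1, HOOK2, FSCN2 and MUS81, with 7.64 to 14.3 kb of SMAD3. FSCN2 had neither an H3K27ac region nor a SMAD3 region at its start, so its SMAD3 lay elsewhere in the gene or its flanks. HOOK2 lies beside JUNB, so their windows share peaks.

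**Figure D4:**
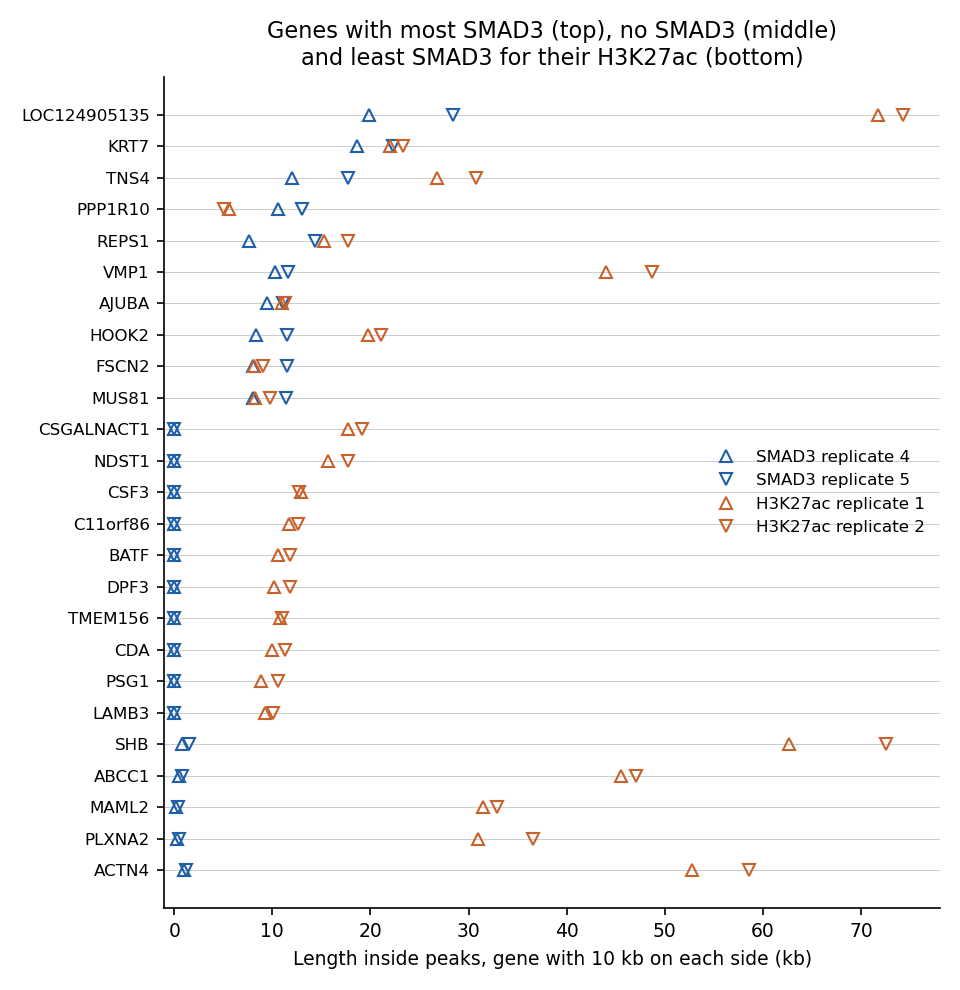
Length inside peaks over the gene and its 10 kb flanks (horizontal axis, kb), for each of the 4 vehicle libraries, in the 10 genes with the most SMAD3 (top), the 10 acetylated genes without SMAD3 that had the most H3K27ac (middle), and 5 of the genes with the lowest SMAD3 for their H3K27ac that had some SMAD3 (bottom). SMAD3 reaches 28.4 kb at the top and is at 0 in the middle, and stays below 1.6 kb at the bottom beside 31.0 to 72.5 kb of H3K27ac.

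At the other end stood long genes with wide acetylation and little SMAD3. The adaptor SHB had 0.757 and 1.55 kb against 62.6 and 72.5 kb (−4.30 ± 0.17, SE, adjusted p = 1.40e-06), and the transporter ABCC1 0.492 and 0.825 kb against 45.6 and 47.0 kb (−4.25). The Notch coactivator MAML2 (−4.21), the semaphorin receptor PLXNA2 (−4.18) and the actin crosslinker ACTN4 (−4.05) were further examples. CSGALNACT1 was also among them, but with SMAD3 listed at 0 its value rests on the added 500 bp, so no fold is given. In ABCC1, MAML2, PLXNA2 and ACTN4 the adjusted p was 9.11e-07. With the window cut to 1 kb around the start, the value of ACTN4 was 0.015.

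Among the genes with the largest differences upward, 5 had no H3K27ac peak in either library, so no fold is given. TNFRSF13C, the BAFF receptor of B cells, had 2.25 and 5.92 kb of SMAD3. PILRA and its neighbour PILRB shared the same peaks of 2.52 and 4.71 kb. TTYH1 had 2.41 and 4.35 kb, and SMIM47 2.02 and 3.07 kb. TNFRSF13C, PILRA, TTYH1 and SMIM47 had no SMAD3 region at their start. Their SMAD3 regions lay elsewhere in the gene or in its 10 kb flanks. CD7, a T cell surface protein, had 1.99 and 2.94 kb of SMAD3 against 0.327 and 0.229 kb of H3K27ac, with a difference of 3.01 (adjusted p = 2.19e-06) that was −0.42 with a window of 50 kb.

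Genes of the TGF-beta pathway had SMAD3 at acetylated starts about as often as other acetylated genes. Over the gene and its flanks, but not at the start, they had less of it for their H3K27ac at the median. Of 28 ligands, receptors and SMADs, 25 were acetylated and all 25 had SMAD3 at the start, close to the 94.1% of all acetylated genes. The other 3 were ENG, ACVRL1 and LDLRAD4. Of 25 tested, 5 had more and 14 less SMAD3 for their H3K27ac, against 38.8% and 30.8% of all genes, with a median difference of −0.44 beside 0.14 over all genes. Measured within 1 kb of the start only, 7 had more and 4 less of 23, with a median of 0.07 beside 0.06 over all genes. Of all 10788 genes tested at the start, 2484 had more and 1493 less. The ligand gene TGFB1 had 2.71 and 3.64 kb of SMAD3 against 9.69 and 10.5 kb of H3K27ac (−0.44, adjusted p = 0.0085). TGFB2 had 2.56 and 2.66 kb against 29.5 and 32.6 kb (−2.24). The receptor TGFBR1 had 0.751 and 0.995 kb against 1.91 and 1.80 kb (0.32, adjusted p = 0.031), and TGFBR2 0.768 and 1.03 kb against 19.6 and 23.8 kb (−2.89). SMAD3's own gene had 1.79 and 2.41 kb of SMAD3 in 3 regions against 64.9 and 69.5 kb of H3K27ac in 43, a difference of −3.61 ± 0.11 (SE, adjusted p = 9.11e-07). Within 1 kb of its start the value was 0.31. The coactivator SMAD4 had 1.25 and 1.23 kb against 1.98 and 2.32 kb (0.50, adjusted p = 0.0070). Of the inhibitors, SMAD7 had 1.63 and 2.25 kb against 18.2 and 17.9 kb (−1.84), SKIL 1.78 and 1.98 kb against 3.20 and 3.59 kb (0.39, adjusted p = 0.0118), and PMEPA1 0.844 and 1.95 kb against 26.3 and 26.8 kb (−2.80). In each of these genes both H3K27ac values lay above both SMAD3 values, an order that the longer H3K27ac lists favour in any gene.

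Target genes of the pathway were similar. Of 26 targets 22 were acetylated, all 22 with SMAD3 at the start, again close to the 94.1% of all acetylated genes. Of 24 tested, 4 had more and 16 less SMAD3 for their H3K27ac, against 38.8% and 30.8% of all genes, with a median of −0.47 beside 0.14. Within 1 kb of the start 5 had more and 4 less of 22, with a median of 0.12 beside 0.06. TGFBI, a matrix protein, had 0.526 and 0.913 kb against 11.7 and 13.0 kb (−2.31). CCN2, a matricellular growth factor, had 1.71 and 2.65 kb against 5.51 and 6.03 kb (−0.15, adjusted p = 0.334). IL11, a fibrogenic cytokine, had 1.88 and 4.12 kb against 3.73 and 3.34 kb (0.82, adjusted p = 0.013). NEDD9, a focal adhesion scaffold, was not acetylated at its annotated start and had 0.317 and 0.329 kb against 27.6 and 28.9 kb (−4.02).

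AP-1 and TEAD factors bind DNA together with SMADs. In the lists named for them SMAD3 was at 95.2% and 94.4% of acetylated starts, the same as the 94.1% of all acetylated genes to within 1 gene. Of 24 AP-1 and immediate early genes 21 were acetylated, 20 with SMAD3 at the start. JUN had 1.60 and 2.98 kb of SMAD3 against 4.20 and 4.32 kb of H3K27ac (0.28, adjusted p = 0.169), and JUNB 6.97 and 9.65 kb against 15.2 and 16.6 kb (0.19, adjusted p = 0.20). FOSL1 had 3.19 and 4.21 kb against 15.6 and 15.4 kb (−0.84), a value that was 0.30 with a window of 50 kb. The AP-1 list had 5 more, 9 less and 9 that did not pass, against 38.8% more and 30.8% less of all genes. Measured within 1 kb of the start only, 8 had more and 1 less of 19 (median 0.22, beside 0.06 over all genes). Of all 10788 genes tested there, 2484 had more and 1493 less. Of 20 YAP and TEAD targets 18 were acetylated, 17 with SMAD3 at the start. Over the gene and its flanks 2 had more and 12 less of 19 tested (median −0.82, beside 0.14 over all genes). Within 1 kb of the start 8 had more and 2 less of 17 (median 0.22). Among all genes, too, having more was commoner there than having less. CRIM1, a membrane-bound regulator of growth factors, had 0.969 and 1.27 kb of SMAD3 against 53.4 and 58.6 kb (−4.03). F3, tissue factor, had 6.17 and 10.3 kb against 11.7 and 12.7 kb (0.52, adjusted p = 0.021).

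Of 25 biliary lineage factors 13 were acetylated, 11 of them (84.6%) with SMAD3 at the start, beside 94.1% of all acetylated genes, a difference that was not tested. GRHL2 and KLF5 had it in the window only. SOX9 had 0.289 and 0.464 kb of SMAD3 against 1.958 and 2.12 kb of H3K27ac (−0.44, adjusted p = 0.0064). HES1, the Notch effector, had 3.06 and 3.76 kb against 8.26 and 8.17 kb (−0.06, adjusted p = 0.620). Among the 23 cholangiocyte markers, 11 of the 13 acetylated also had SMAD3 at the start. EPCAM, a surface glycoprotein, had a SMAD3 peak in replicate 5 only (0.159 kb), with 0.208 and 0.645 kb of H3K27ac. KRT19 had 0.953 and 2.88 kb of SMAD3 against 7.73 and 8.04 kb, with the SMAD3 libraries far apart (−0.82, adjusted p = 0.0308, and 0.65 with equal peak numbers). KRT8 had 5.82 and 8.99 kb against 22.015 and 23.7 kb (−0.49, adjusted p = 0.016), and its partner KRT18 3.40 and 4.28 kb against 7.22 and 7.71 kb (0.22, adjusted p = 0.095).

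Junction, matrix and integrin genes had long H3K27ac, with SMAD3 that was not short but low for that H3K27ac. Their median H3K27ac lengths were 5.21, 7.47 and 13.3 kb beside 1.79 kb over all genes, and their median SMAD3 lengths 1.02, 1.11 and 1.44 kb beside 0.732 kb. In the class of all genes with the most H3K27ac, 1998 of 2693 had less SMAD3 for it, and the part of H3K27ac length in the values of these lists was not tested. Of 25 junction genes 21 were acetylated, 19 with SMAD3 at the start and CDH3 and PKP3 with it elsewhere, and of 23 tested 1 had more and 15 less (median −0.65). CDH1, E-cadherin, had 1.28 and 1.81 kb of SMAD3 against 27.1 and 30.1 kb of H3K27ac (−2.74, adjusted p = 1.57e-06, and 0.18 within 1 kb of the start). Of 26 matrix genes 21 were acetylated. SMAD3 was at the start of 18 of them, and LAMB3, LOX and TNC lacked it. Of 22 tested, 20 had less and 1 more, against 30.8% and 38.8% of all genes, with a median of −1.15. COL4A2, a basement membrane collagen that shares its start with COL4A1, had 0.828 and 1.65 kb against 15.1 and 16.8 kb (−2.18). FN1, fibronectin, had 1.02 and 1.11 kb against 3.57 and 3.98 kb (−0.35, adjusted p = 0.021). Of 26 integrin and cytoskeleton genes 22 were acetylated, 21 with SMAD3 at the start. Of 25 tested 19 had less and 6 did not pass (median −1.33). MYH9 had 0.962 and 1.85 kb against 55.2 and 60.0 kb (−3.87), and ITGA5, the fibronectin receptor chain, 0.587 and 0.691 kb against 11.1 and 11.7 kb (−2.28).

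The low differences were seen over whole genes with their flanks, while values at the starts were close to those of all genes. Measured within 1 kb of the start only, 20 matrix genes were tested, 5 had less and 2 more, and their median was 0.05, beside 0.06 over all genes. For integrin and cytoskeleton genes the median at the start was 0.07, with 7 more and 5 less of 21. In the whole window the median SMAD3 length of acetylated members was 16.5% of their H3K27ac length in matrix genes, 18.8% in integrin and cytoskeleton genes and 43.0% in all acetylated genes. At the start it was 60.2%, 61.4% and 59.4%. The lowest medians at the start among lists with at least 10 members tested were −0.33 for inflammatory cytokines and chemokines (8 less and 2 more of 14), −0.30 for interferon response genes (9 less of 20), −0.22 for proteasome genes (10 less of 27) and −0.20 for biliary factors (5 less and 1 more of 12), where 2484 of 10788 genes had more and 1493 less.

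Genes expressed in every cell type were nearly all acetylated, and their acetylated starts had SMAD3, as did 94.1% of all acetylated genes. All 26 ribosomal protein genes, all 25 housekeeping genes and all 27 proteasome genes were acetylated with SMAD3 at the start, as were 27 of 28 respiratory chain genes. Ribosomal protein genes had a median difference of 0.46, with 15 more and 3 less of 26, where all genes had 0.14 with 38.8% more and 30.8% less. Housekeeping genes had 0.26 (12 more, 3 less), respiratory chain genes 0.28 (14 more, 3 less) and proteasome genes 0.14 (5 more, 6 less), the median of all genes. At the start only (within 1 kb), the median of ribosomal protein genes was 0.07 (8 more, 3 less of 26), beside 0.06 over all genes. That of respiratory chain genes was −0.01 (2 more, 3 less of 27) and that of housekeeping genes 0.21 (12 more, 4 less of 25). Proteasome genes had −0.22 there. Of all 10788 genes tested at the start, 2484 had more and 1493 less. ACTB had 7.67 and 8.49 kb of SMAD3 against 6.979 and 6.995 kb of H3K27ac, so SMAD3 was longer in both libraries (1.30 ± 0.10, SE, adjusted p = 2.96e-05). GAPDH had 4.29 and 5.07 kb against 9.20 and 10.8 kb (0.08, adjusted p = 0.509). RPL23 had 4.53 and 5.54 kb against 2.59 and 2.91 kb (1.87). Windows of such short genes in gene-rich regions take in neighbouring starts.

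The remaining lists are given by their counts, to be read beside the 94.1% of all acetylated genes with SMAD3 at the start. Of 22 interferon response genes 21 were acetylated, 17 with SMAD3 at the start, and IFITM1, OAS1, IFI44 and IFI44L had it elsewhere. Of 20 inflammatory genes 14 were acetylated, 12 with SMAD3 at the start. IL6 had 3.95 and 4.28 kb of H3K27ac with a SMAD3 peak of 0.181 kb in replicate 5 only. Of 19 BMP and ID genes 12 were acetylated, and all but NOG had SMAD3 at the start. ID1 had 3.20 and 3.61 kb against 11.7 and 12.3 kb (−0.58, and 0.41 within 1 kb of the start). Of 15 Notch genes 9 were acetylated, 8 with SMAD3 at the start, and of 26 cell cycle genes 25, 24 with it. CDK6 was the exception, with a SMAD3 peak of 0.473 kb in replicate 5 only against 18.1 and 18.6 kb of H3K27ac (−3.66). Of 24 acetylation genes 22 were acetylated, all with SMAD3 at the start. EP300, a writer of H3K27ac, had 1.44 and 1.48 kb of SMAD3 against 2.39 and 2.92 kb (0.42, adjusted p = 0.015). Of 17 transition factors 12 were acetylated, 9 with SMAD3 at the start. SNAI1 had more SMAD3 (0.831 and 1.31 kb) than H3K27ac (0.361 and 0.309 kb), with a difference of 1.996 (adjusted p = 8.4e-06). Of 29 HOX genes 27 were listed at 0 for H3K27ac, and HOXB2, the only acetylated one, lacked SMAD3.

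**Figure D5:**
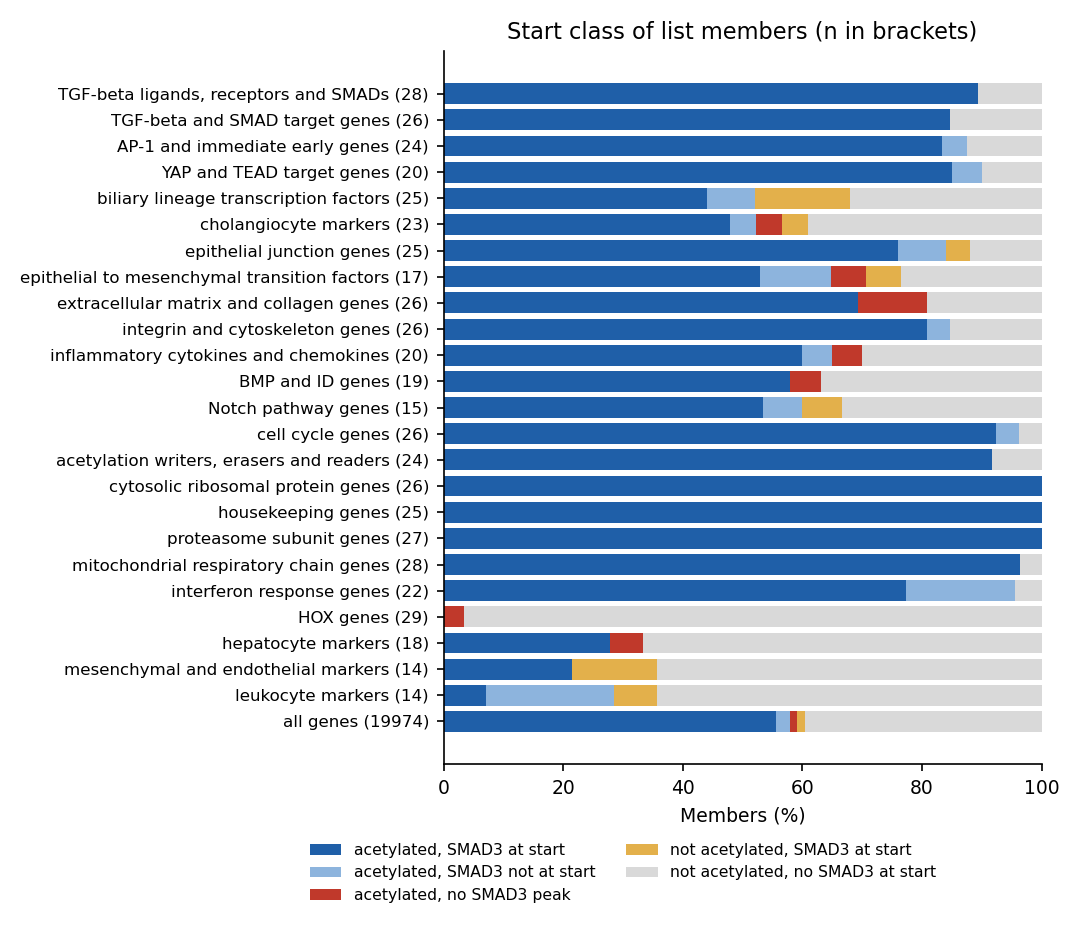
Share of the members of each gene list (horizontal axis, percent, number of members in brackets) by class of start in the vehicle libraries: acetylated with SMAD3 at the start, acetylated with SMAD3 elsewhere, acetylated with no SMAD3 peak, or not acetylated with or without SMAD3. Ribosomal protein, housekeeping and proteasome genes fall wholly in the first class, and the matrix list holds the most genes that lack SMAD3, 3 of 26.

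Starts with and without SMAD3 differed in base composition. Promoter sequences were known for 9207 genes with SMAD3 at an acetylated start, for 144 acetylated genes without SMAD3 and for 15812 genes in all, as 300 bases from 250 before to 50 after the start. GC content had a median of 66.0% with SMAD3, 53.7% without and 62.7% in all. The ratio of observed to expected CpG had medians of 0.860, 0.319 and 0.763, and was at least 0.6 in 90.2%, 28.5% and 65.8%. CAGAC, on either strand, was present in 42.1% with SMAD3, 60.4% without and 44.1% of all promoters. GGCGCC was present in 33.1%, 11.1% and 25.2%. The AP-1 motif TGANTCA was present in 3.65%, 11.1% and 5.76%, and the ETS motif CCGGAAG in 22.2%, 2.08% and 14.2%. GGGCGG, bound by SP factors, was present in 74.9%, 38.2% and 58.5%. CGCATGC, the NRF1 motif, was in 7.31%, 1.39% and 5.14%, and CCAAT, bound by NF-Y, in 37.5%, 35.4% and 36.3%. GC content moved with these shares, and its part in them was not tested. Overlaps between motifs were not removed. The 200 promoters of known sequence that had SMAD3 at a start without H3K27ac had a median GC content of 69.7%, and 3.50% held CCGGAAG. Low GC content was not particular to acetylated genes without SMAD3. The 5914 promoters with neither target at the start had a median GC content of 55.0% and CpG ratio of 0.334. Of these, 13.5% held GGCGCC, 2.94% CCGGAAG, 8.56% TGANTCA and 46.7% CAGAC. The 347 acetylated ones with SMAD3 elsewhere had 57.0% and 0.412, and 17.0% held GGCGCC.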

How the data were processed

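ChIP-seq of SMAD3 and H3K27ac in vehicle-treated H69 cells was used, with vehicle H3K9ac and TGF-beta SMAD3 libraries as other readouts of the same regions. The build was hg38 and the tools named are MACS2, BWA, bedtools and Picard, per the submitters' processing notes. Tool versions, peak cutoff and control were not given in the sources used here. For each library the authors deposited a peak list with a score that is −log10 of a p-value or q-value from the caller (which of them is not stated). Scores served only to rank peaks within a library.

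Peaks on chromosomes 1 to 22 and X were merged within each target at 1 bp of overlap with Python 3.11.15, numpy 2.4.6 and pandas 2.3.3. Genes were 19974 protein-coding RefSeq genes of GRCh38.p14. The start was known for 15812 genes, and for the other 4162 both gene ends were used. Exons and introns were not resolved.

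The gene comparison used limma 3.58.1 in R 4.3.3 on genes with a mean length of at least 500 bp, with Benjamini-Hochberg adjustment over all genes tested. On simulated lengths that differed between targets by a scale gap, this fit also called genes simulated without a change, more than the same fit on lengths scaled to a common median first, so both counts are given. With 2 libraries against 2, an exact permutation test of 1 gene cannot go below 0.333. Windows of neighbouring genes overlap.

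The samples, the 24 gene lists (547 entries in the annotation) and the settings were chosen with earlier results of these data known. Named genes were the 10 with the most SMAD3, the 10 acetylated genes without SMAD3 that had the most H3K27ac, the 8 largest differences each way, the genes at the 10 best SMAD3 regions without H3K27ac, list members with the most SMAD3 or with none, and genes fixed by name. Some genes that these rules name are not reported here. Other list members were named after their values were seen. Figures used matplotlib 3.10.9.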

Additional observations from a re-analysis of the deposited data

How the results depend on the processing

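Shares and counts moved with the number of peaks taken, and the limma counts also with centring. SMAD3 regions with H3K27ac were 87.0% with regions called in either library, 75.8% with equal peak numbers in all 4 libraries, and 85.2% to 93.5% when single libraries were left out. H3K27ac regions with SMAD3 were 25.4% with either library, 36.3% at a score of at least 5, 72.3% with equal numbers, 43.1% with peaks within 1 kb merged, 28.2% with overlap over 0.5 of the smaller region, and 24.4% to 35.9% when single libraries were left out. At starts these were 80.9% (either), 97.3% (equal numbers), 93.2% (merged), 70.3% (larger overlap) and 78.0% to 87.6%, and away from starts 9.43%, 36.8%, 16.1% and 7.82% to 14.0%, where the larger overlap moved little. SMAD3 regions at gene starts were 57.3% with either library, 59.2% within 250 bp, 56.1% with genes of known start only, and 58.2% to 67.6% when single libraries were left out. SMAD3 regions without H3K27ac numbered 3338 with either library, 3571 with equal numbers, 669 merged, and 1202 to 3187 when single libraries were left out. Acetylated genes without SMAD3 numbered 29 with equal numbers, 104 within 50 kb, 485 within 1 kb of the start, 110 over all SMAD3 libraries, 144 of known start, and 238 to 333 when single libraries were left out. In limma, 2484 genes had more and 1493 less SMAD3 within 1 kb of the start, 89 and 11679 without centring, 2836 and 2505 with equal numbers, and 3833 to 5494 and 3487 to 4441 when single libraries were left out. With lengths scaled to a common median first, which was added after the data were seen, these were 4722 and 4010. The CAGAC share of promoters without SMAD3 exceeded that with SMAD3 by 18.4 percentage points, and by 11.5 and 12.5 in the upstream 150 bases and in those next to the start. For GGCGCC the differences were −22.0, −10.4 and −14.1. Of 39 named genes over 569 comparisons, 512 kept their direction and side of the threshold, 18 lost the call, 25 gained one and 14 changed sign. The sign changes within 1 kb of the start were ACTN4 0.015, CDH1 0.18, ID1 0.41, LOC124905135 0.23 and SMAD3 0.31. With a window of 50 kb they were CD7 −0.42, FOSL1 0.30, FSCN2 −0.0047 and KRT7 −0.044, and with one of 2.5 kb ID1 0.26. Without centring they were AJUBA −0.12, KRT7 −0.15 and SKIL −0.71, and with equal numbers KRT19 0.65. Apart from what each setting changes by construction, the cause was not tested. Settings were compared at unknown depth. No paired analysis was possible because the SMAD3 and H3K27ac libraries share no replicate number.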

Other observations

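Starts of genes transcribed by RNA polymerase III or into small RNAs differed in how often acetylation came with SMAD3. Of 443 tRNA genes, which polymerase III transcribes, 190 (42.9%) had an H3K27ac region within 200 bp and 69 (15.6%) a SMAD3 region, and SMAD3 was present at 35.8% of the acetylated ones. SMAD3 peaks were near 64 tRNA genes in replicate 4 and 79 in replicate 5. Of 154 snRNA genes 46 were acetylated, and 80.4% of these had SMAD3. Of the acetylated snoRNA genes (94), miRNA genes (243) and lncRNA genes (5096), 28.7%, 52.3% and 62.1% had SMAD3. Many snoRNA and miRNA genes lie in introns of host genes, which was not separated here.

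Gene families were chosen after values were seen. Of 517 zinc finger genes with ZNF symbols 443 were acetylated, 97.7% of them with SMAD3 at the start. Of 63 histone genes 53 were acetylated, 92.5% with SMAD3 at the start. Of 55 keratin genes 11 were acetylated, 6 with SMAD3 at the start and 3 without any SMAD3 peak, KRT5 among them with 3.89 kb of H3K27ac in replicate 1. Of 10 PSG genes, placental glycoproteins in 1 cluster, 4 were acetylated and all 4 lacked SMAD3, and reads of these near-identical genes may be split or misplaced. Of 34 serpin genes 11 were acetylated, 9 with SMAD3 at the start and 2 without any SMAD3 peak.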
